A study of Homo sapiens with 12 samples.

Results

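Ion channel genes were followed by RNA sequencing in SW480, an established human colorectal adenocarcinoma cell line. The genes described here are those in the authors' table whose symbol begins with KCN, CACN, SCN and a digit, TRPA, TRPC, TRPM, TRPV, CLCN, CLIC, ANO and a digit, ASIC, P2RX, GABR, GRIA, GRIK, or GRIN and a digit, with hyphenated symbols left out. The rule took 54 of the 3699 listed genes, all of them marked as mRNA. They comprised 27 potassium channel genes, 7 of voltage-gated calcium channels, 4 of voltage-gated sodium channels, 6 of transient receptor potential (TRP) channels and 3 of chloride channels and anoctamins. The remainder were 4 GABA-A receptor genes and 1 gene each of an ionotropic glutamate receptor, a P2X receptor and an acid-sensing channel.

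The 12 libraries form 4 groups of 3: untreated cells, cells given PUE, cells given GLY, and cells given both agents (GLY_PUE). The abbreviations are those of the labels. All cells were grown for 12 h in IMDM with 10% serum before a treatment that the protocol sets at 12 h, while the labels of the 3 GLY libraries read 12, 13 and 14 h for replicates 1, 2 and 3. The series concerns the herbal mixture Gegen Qinlian Decoction and Wnt signalling, and its title names synergy, so the joint treatment was compared with each agent alone. Whether the replicates of a group were grown as separate cultures is not stated, so the tests rest on differences between libraries that may be technical.

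Ion channels are membrane proteins that let selected ions pass when they are opened by voltage, ligands, calcium, heat, acid or stretch. In colonic epithelium, potassium channels hold the membrane voltage that drives chloride secretion and sodium uptake, and calcium-permeable channels feed calcium signals. Many voltage-gated channels are best known from nerve, heart and muscle, and are also transcribed in lines derived from carcinomas.

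The table is a selected list: each gene in it met the authors' cut-offs for change in some comparison, so a channel gene outside it was not analysed here, and the share of channel genes called is read against the share called among all genes tested. Library totals recovered from the table ran from 19.7 to 21.4 M reads, of which channel genes took 4580 to 11176 reads per library. Levels are given as CPM, reads scaled to the recovered total, and a gene without a read in a library could still be present at up to 0.152 CPM (a limit of 3 counts, for counting error only). Tests are edgeR quasi-likelihood tests with p-values adjusted over 3429 genes, and a gene is called at an adjusted p under 0.05. As these genes were listed for change in the same libraries, the adjusted p-values are not error rates over the genome. Of the channel genes 49 entered the tests, and 5 had too few reads: GABRD, KCNJ1, TRPM3, KCNG2 and KCNK7, whose highest library held 31, 28, 19, 6.52 and 7 reads. The 49 therefore do not stand for all 54. In untreated, PUE and GLY_PUE cells the library numbered 3 stood apart from numbers 1 and 2. The mean chi-square per gene was 2.13 to 5.1 between numbers 1 and 2 in untreated, PUE and GLY_PUE cells and 52.2 to 76.4 between number 3 and those libraries. In GLY cells all 3 libraries differed, replicate 1 the most, at 182 against replicate 2 and 257 against replicate 3, with 74.9 between replicates 2 and 3.

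Of 11 colon epithelium markers the table held 2, CDX2 and VIL1, and both fell with GLY (log2 fold changes −2.44 and −1.32; under TMM VIL1 was not called). Summed, they ran from 70.2 to 94.5 CPM in untreated libraries, from 70.7 to 96.3 with PUE, from 12.1 to 20.8 with GLY and from 13.5 to 15.4 with GLY_PUE. Of 7 leukocyte markers CD68 and CD14 were listed, with summed levels of 4.63 to 6.91 CPM without GLY and 17.1 to 24.4 CPM with GLY or GLY_PUE, while the defining marker PTPRC was not analysed here. CD68 rose (2.16) and CD14, at or under 1.12 CPM in every library, fell (−3.01). Of 7 fibroblast markers the table held PDGFRB (1.38 with GLY, 0.689 to 3.74 CPM over all libraries, and 0.90 without the libraries numbered 3). Of 7 neuronal markers it held SNAP25, which was not called, of 4 muscle markers DES and TNNT2, and of 4 endothelial markers none. These levels moved with GLY alongside the channel genes, and their part in the results was not tested. In bulk RNA, fewer cells of a kind and less RNA per cell cannot be told apart.

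Without GLY the highest channel transcript per unit of length was KCNJ5, which encodes an inward rectifier potassium channel subunit opened by G proteins. On the authors' length-scaled FPKM values it stood at 31.0 ± 10.9 in untreated cells (SD, n = 3 here and below). Well below it, KCNN4 stood at 6.08 ± 3.12, GABRA3 at 5.98 ± 2.17, ANO4 at 5.21 ± 4.43 and KCNH2 at 4.87 ± 0.200 FPKM, and these 4 did not differ beyond their spread. With PUE KCNJ5 again stood highest, at 30.4 ± 8.06 FPKM. With GLY the order was another. KCNN4, the intermediate-conductance calcium-activated potassium channel gene, led at 19.8 ± 9.59 FPKM, followed by TRPM4 at 10.9 ± 5.89, TRPV6 at 9.68 ± 2.92, KCNK6 at 8.11 ± 1.65 and KCNJ5 at 5.80 ± 0.326. These neighbours overlapped within their SDs, apart from KCNK6 and KCNJ5. GLY_PUE cells had the same order, with KCNN4 at 15.6 ± 2.47, TRPM4 at 9.62 ± 0.341, TRPV6 at 8.57 ± 3.61, KCNK6 at 7.54 ± 1.88 and KCNJ5 at 5.82 ± 1.31 FPKM.

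**Figure D1:**
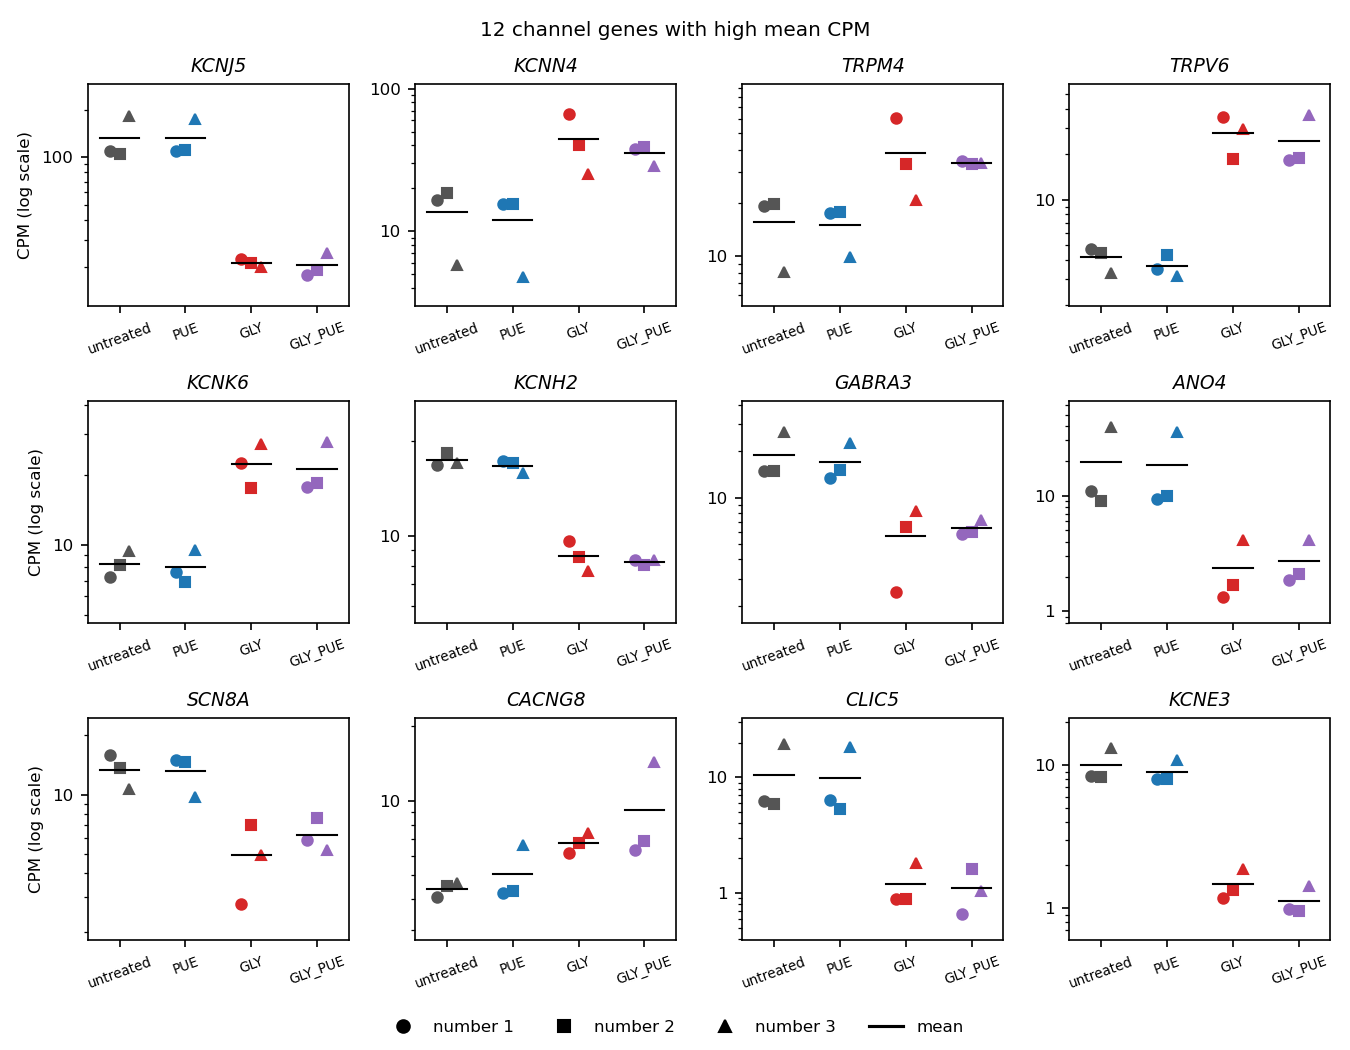
Levels in CPM (log axis) of 12 channel genes with a high mean level, one panel per gene, with 1 marker per library, marker shape for replicate number 1, 2 or 3, and a line at the group mean. KCNJ5 is lower and KCNN4, TRPM4, TRPV6 and KCNK6 higher in every GLY and GLY_PUE library than in any untreated or PUE library.

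Summed over the 54 genes, channel transcripts made up 374.5, 369.5 and 550.8 CPM in untreated and 370.8, 372.9 and 535.8 CPM in PUE libraries. They made up 295.6, 223.3 and 229.2 CPM in GLY and 214.5, 220.2 and 268.5 CPM in GLY_PUE libraries. All 6 sums with GLY lie below the 6 without it, and in 3 of the 4 groups the library numbered 3 has the highest sum.

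GLY against untreated asks what GLY alone did. Of the 49 genes tested, 10 rose (19.7% of all 3429 genes tested were called higher) and 30 fell (64.6% of all genes), 40 in either direction against 84.3% of all genes. The groups did not overlap for 41 channel genes (83.3% of all genes). The median log2 fold change was −1.17 over the 49 genes and −1.15 over all genes tested, so the channel genes as a set lay near the rest of the table. Trimmed-mean (TMM) scaling within the table, which sets the middle of the list near no change, raised the median of all genes to −0.02 and that of the channel genes to 0.01. With it 11 channel genes rose (23.7% of all genes) and 10 fell (10.1%).

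GLY_PUE against PUE asks the same question of GLY in the presence of PUE and shares no library with the first comparison. Here 12 genes rose (20.6% of all genes) and 28 fell (57.3%), 40 in either direction (77.8%), and 38 had groups that did not overlap (87.8%). The medians were −1.18 for the channel genes and −1.05 for all genes. Under TMM 12 rose (24.2%) and 11 fell (11.7%), with medians of −0.18 and −0.02. GLY_PUE against untreated, which shares libraries with each of these, gave 11 higher (20.2%) and 29 lower (57.1%), 40 in either direction (77.3%), with 41 groups apart (87.3%). Under TMM it gave 12 higher (23.8%) and 9 lower (11.5%). Within each replicate number, 39 of the 40 genes called for GLY against untreated moved in the called direction in all 3 numbers, the exception being KCNH1, as did 40 of 40 in each of the other comparisons. These genes were called on the same libraries and most had groups that did not overlap. Matching signs were therefore nearly fixed by the calls and are no further support.

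**Figure D2:**
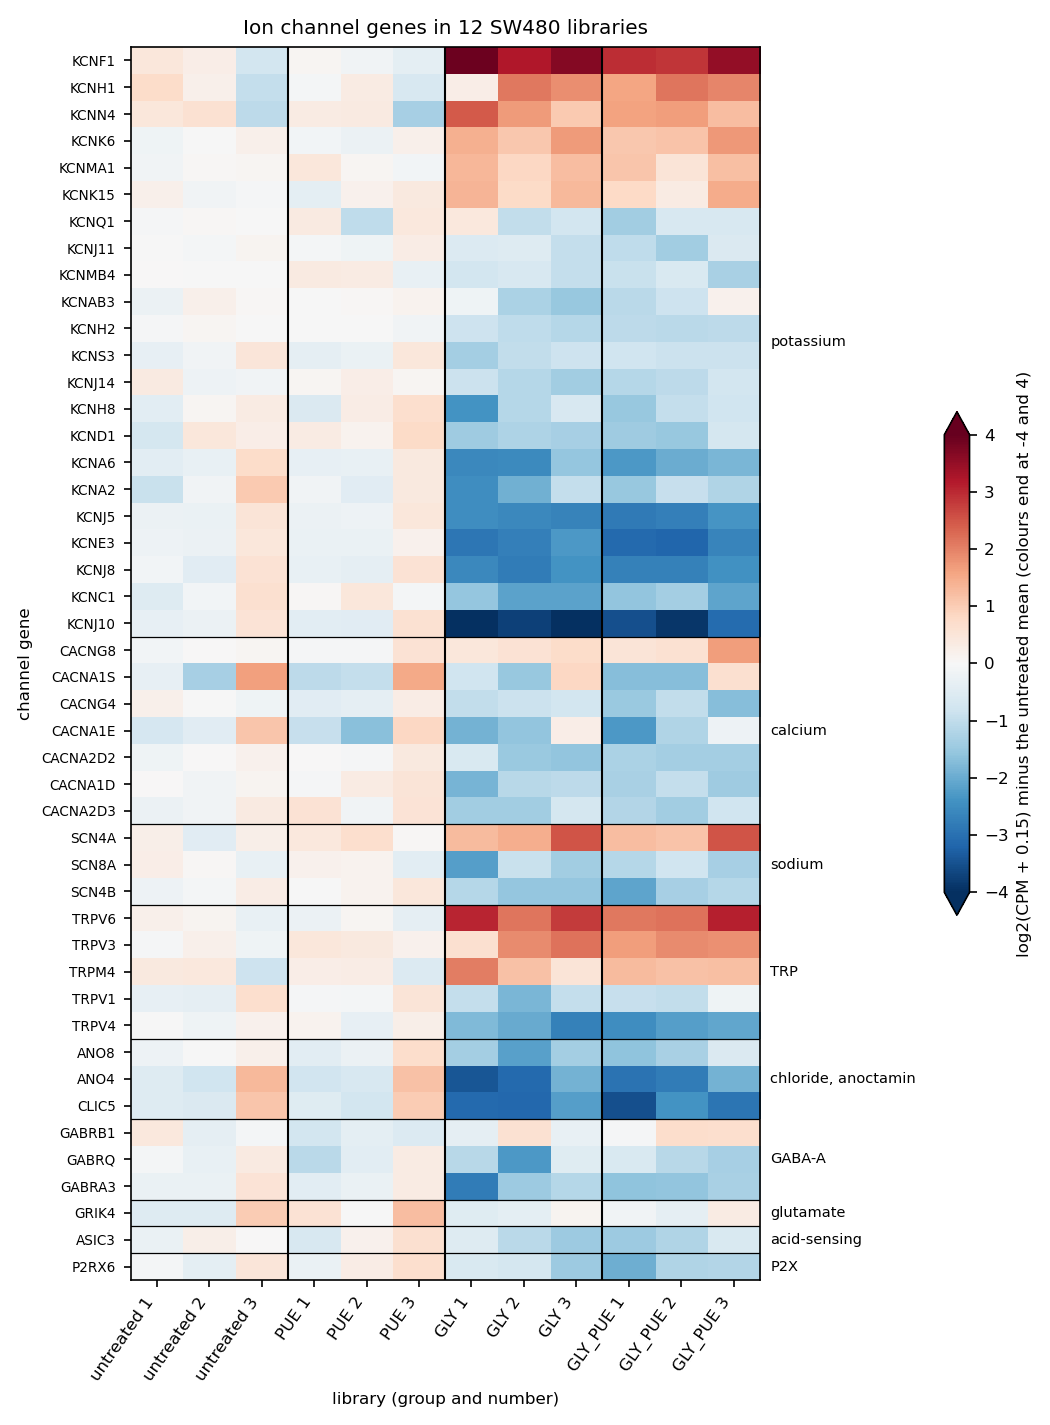
Level of 46 tested channel genes (rows, grouped by family) in the 12 libraries (columns), as log2 CPM minus the untreated mean, with colours ending at −4 and 4. No gene was called between untreated and PUE columns or between GLY and GLY_PUE columns, while KCNF1, TRPV6 and KCNN4 are above and KCNJ10, ANO4, CLIC5 and KCNJ5 below the untreated mean in each library given GLY.

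In the pair of comparisons without shared libraries, the log2 fold change had the same sign for 49 of 49 genes (Pearson 0.965, Spearman 0.893 across genes, which are not independent replicates). In both, 10 genes were called higher and 27 lower, none in opposite directions, while 3 were called only in the first comparison, TRPV1 and KCNA2 among them, and 3 only in the second, CACNG8 and GABRB1 among them. Each gene was listed for a change in these same libraries, so such agreement was favoured by the selection. It is given as a description, and the matching share over all genes was not counted. No gene was called in the interaction. The 10 higher genes were KCNN4, TRPM4, TRPV6, KCNK6, KCNK15, KCNMA1, TRPV3, SCN4A, KCNF1 and KCNH1. All 10 were also called under TMM, which raised the median of all genes from −1.15 to −0.02 for GLY. That shift favours calls of higher genes, so keeping them is no further support. Of the 27 lower genes 10 were also called lower in both under TMM, among them KCNJ5, ANO4, CLIC5, KCNE3, KCNA6, KCNJ8, KCNJ10, TRPV4 and KCNC1. The remaining 17 fell relative to library totals but, under TMM, were called lower in at most 1 of the comparisons, and some had the opposite sign.

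**Figure D3:**
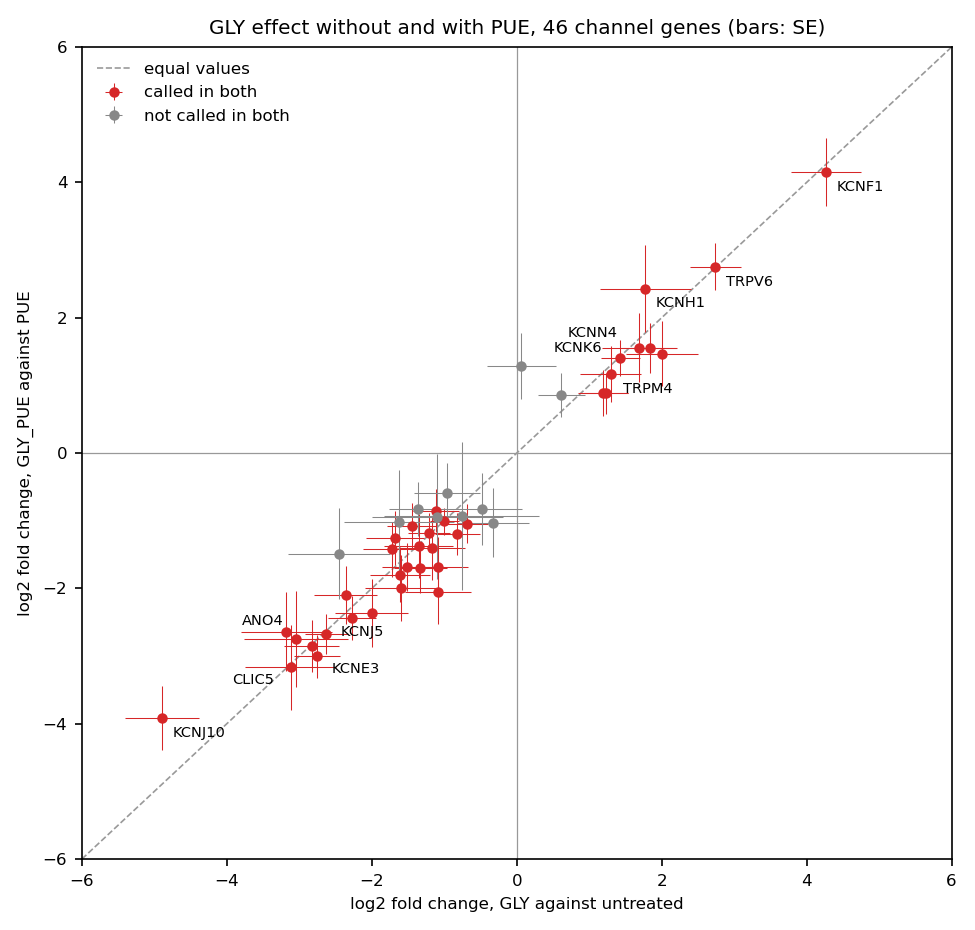
Log2 fold change of GLY against untreated (x axis) and of GLY_PUE against PUE (y axis) for 46 tested channel genes, bars giving 1 SE, red for genes called in both comparisons and grey for the others, with a dashed line of equal values. The points lie along the line, from KCNJ10 at −4.9 and −3.92 to KCNF1 at 4.26 and 4.15.

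To set the genes that moved furthest or stood highest beside their regulatory DNA, the 250 bases before the RefSeq start site (GRCh38.p14) are printed for the 3 highest-level genes that rose in both comparisons, for KCNJ5, the highest-level gene that fell, and for KCNF1, which rose most. Of the 54 genes 38 had an entry. Bases in capitals are matches, on either strand, to the letters searched: TGANTCA (AP-1), TGACGTCA (CRE), CTTTGAT with CTTTGTT (TCF/LEF), TGATGCAA (ATF4), CACGTG (E-box), TATAAA (the TATA box) and GGGCGG (GC box).

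KCNN4, chr19:43780974-43781223, minus strand: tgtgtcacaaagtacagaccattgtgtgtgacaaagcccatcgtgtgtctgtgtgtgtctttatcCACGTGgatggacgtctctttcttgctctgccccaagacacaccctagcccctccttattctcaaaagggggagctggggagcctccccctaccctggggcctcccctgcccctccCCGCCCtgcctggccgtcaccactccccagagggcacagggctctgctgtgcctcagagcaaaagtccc
TRPM4, chr19:49157542-49157791, plus strand: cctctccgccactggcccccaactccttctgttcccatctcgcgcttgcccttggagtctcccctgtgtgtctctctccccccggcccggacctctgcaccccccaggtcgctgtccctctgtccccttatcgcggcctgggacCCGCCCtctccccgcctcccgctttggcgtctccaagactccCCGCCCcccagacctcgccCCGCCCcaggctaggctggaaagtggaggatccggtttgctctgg
TRPV6, chr7:142885746-142885995, minus strand: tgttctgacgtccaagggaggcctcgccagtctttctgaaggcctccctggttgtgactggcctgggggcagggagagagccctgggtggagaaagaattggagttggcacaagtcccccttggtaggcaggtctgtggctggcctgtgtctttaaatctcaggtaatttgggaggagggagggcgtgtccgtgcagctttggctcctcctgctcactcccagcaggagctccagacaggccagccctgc
KCNJ5, chr11:128891106-128891355, plus strand: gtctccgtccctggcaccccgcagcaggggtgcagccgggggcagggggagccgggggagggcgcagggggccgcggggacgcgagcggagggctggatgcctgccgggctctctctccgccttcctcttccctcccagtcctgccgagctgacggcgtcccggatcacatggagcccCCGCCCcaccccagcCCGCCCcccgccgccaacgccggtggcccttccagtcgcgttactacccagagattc
KCNF1, chr2:10911684-10911933, plus strand: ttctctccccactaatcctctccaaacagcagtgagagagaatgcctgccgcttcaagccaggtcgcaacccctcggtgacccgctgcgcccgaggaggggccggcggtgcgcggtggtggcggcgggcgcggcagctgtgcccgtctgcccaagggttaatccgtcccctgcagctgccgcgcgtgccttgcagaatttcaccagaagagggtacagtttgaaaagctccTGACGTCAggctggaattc

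With positions counted back from the start, KCNN4 held an E-box at −185 and a GC box at −69. TRPM4 held GC boxes at −106, −64 and −45, KCNJ5 at −72 and −57, and KCNF1 a CRE at −19. TRPV6 held none of these letters. GC content of the windows was 60% for KCNN4, 69.2% for TRPM4, 60.4% for TRPV6, 75.2% for KCNJ5 and 63.6% for KCNF1. The TCF/LEF letters, which the factors of Wnt signalling bind, were found in 1 of the 38 channel promoters, CTTTGTT in SCN4B, while CTTTGTT occurs in 4.54% and CTTTGAT in 2.28% of 27305 promoters. An E-box occurred in KCNN4 and TRPV3 (6.49% of all promoters), AP-1 letters in TRPV3 (6.6%), a CRE in KCNF1 (1.77%), a TATA box in KCNJ1 and KCNJ14 (11.1%) and ATF4 letters in none (0.82%). GC boxes were in 25 of 38 (42.3%), in 6 of the 8 with an entry that rose in both comparisons and 14 of the 19 that fell in both. These are matches to letters in a short window and not sites of binding.

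Calcium-activated potassium channels open when cytosolic calcium rises and pull the membrane voltage down. KCNN4 (gene ID 3783) stood at 16.7, 18.7 and 5.82 CPM in untreated cells, 15.4, 15.6 and 4.8 with PUE, 66.8, 40.4 and 25.3 with GLY and 37.7, 38.9 and 28.9 with both. All libraries with GLY lay above all without it, and the library numbered 3 was the lowest of its group throughout. The log2 fold change was 1.69 (SE 0.51, adjusted p = 0.00995) for GLY against untreated and 1.56 (SE 0.51, adjusted p = 0.0156) for GLY_PUE against PUE. KCNN4 lost its call in GLY_PUE against PUE without PUE replicate 3 (1.18, adjusted p = 0.0535). KCNMA1, the large-conductance channel gene, rose by 1.23 (SE 0.30, adjusted p = 0.00334) with GLY and by 0.88 (SE 0.30, adjusted p = 0.0181) with GLY added to PUE on the log2 scale, at a mean of 1.53 CPM in untreated cells. KCNMA1 lost its call in GLY_PUE against PUE without PUE replicate 2 or 3, GLY_PUE replicate 1 or 3 or the libraries numbered 3 (between 0.62 and 0.84, adjusted p from 0.0544 to 0.119). Limma on log2(FPKM + 1) and log2(FPKM + 0.1) did not call KCNMA1 there (0.42 and 0.78, adjusted p = 0.0595 and 0.0581). Its beta subunit gene KCNMB4 fell instead, by 0.82 for GLY against untreated (adjusted p = 0.0268) and 1.19 for GLY_PUE against PUE, calls not made under TMM (0.33 and −0.19). KCNMB4 lost its call in GLY against untreated without untreated replicate 1, 2 or 3 or GLY replicate 3 (between −0.83 and −0.73, adjusted p from 0.0519 to 0.0673).

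Inward rectifiers pass potassium more easily into the cell than out and hold the resting voltage. KCNJ5 (gene ID 3762) stood at 109, 105 and 183 CPM in untreated cells, 109.7, 111 and 175 with PUE, 22.8, 21.2 and 20.2 with GLY and 18, 19.2 and 24.7 with both. The untreated and PUE levels were several times those with GLY, with no overlap, and number 3 was the highest in 3 of the groups. KCNJ5 changed by −2.63 (SE 0.29, adjusted p = 4.71e-05) for GLY against untreated and −2.68 (SE 0.29, adjusted p = 4.12e-05) for GLY_PUE against PUE. KCNJ8, a pore subunit of ATP-sensitive channels, stood at 5.34, 4.13 and 8.67 CPM in untreated cells, 4.67, 4.48 and 8.69 with PUE, 0.85, 0.702 and 0.985 with GLY and 0.749, 0.753 and 0.947 with both. Every library with GLY was under every library without it (−2.83, SE 0.38, adjusted p = 0.000113, for GLY against untreated, and −2.85, SE 0.38, adjusted p = 0.000127, for GLY_PUE against PUE). KCNJ10, known from glia and kidney, had 4.45, 4.74 and 8.14 CPM in untreated cells, 4.13, 4.05 and 8.5 with PUE, 0.0945, 0.281 and 0.188 with GLY and 0.345, 0.236 and 0.521 with both. Its GLY levels rest on 2 to 6 reads per library and were close to the level that a count of 0 allows. The change was −4.9 (SE 0.51, adjusted p = 3.05e-05) for GLY against untreated and −3.92 (SE 0.48, adjusted p = 7.93e-05) for GLY_PUE against PUE, the largest decrease among the 49 genes in each comparison. These 3 genes were called lower under TMM as well. KCNJ11, the other pore subunit of ATP-sensitive channels, and KCNJ14 fell less, by 0.69 and 1.21 for GLY against untreated and 1.04 and 1.18 for GLY_PUE against PUE, with values of 0.48 and −0.02 for KCNJ11 and −0.05 and −0.18 for KCNJ14 under TMM. KCNJ11 lost its call in GLY against untreated without untreated replicate 1, 2 or 3, PUE replicate 1 or 2, GLY replicate 2 or 3, GLY_PUE replicate 1 or the libraries numbered 3 (between −0.78 and −0.49, adjusted p from 0.0528 to 0.118). Of KCNJ14's 4340 exon bases in GENCODE 29, 715 overlap an antisense gene. On the same strand 350 overlap GRWD1 and 121 another protein-coding gene. KCNJ1 was among the genes with too few reads, at 0.199 to 1.38 CPM in the 6 libraries without GLY and 0 to 0.141 CPM in the 6 with it.

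Tandem pore-domain channels carry the potassium leak current. KCNK6 (gene ID 9424) stood at 7.31, 8.15 and 9.41 CPM in untreated cells, 7.62, 6.93 and 9.51 with PUE, 22.4, 17.6 and 27.1 with GLY and 17.6, 18.4 and 27.5 with both. The lowest level with GLY lay above the highest without it. It rose, with log2 fold changes of 1.43 (SE 0.26, adjusted p = 0.000682) for GLY against untreated and 1.4 (SE 0.26, adjusted p = 0.000855) for GLY_PUE against PUE. KCNK15 was at 2.79, 2.17 and 2.37 CPM in untreated cells, 1.83, 2.74 and 3.23 with PUE, 6.45, 4.22 and 6.15 with GLY and 4.34, 3.12 and 7.05 with both. GLY and untreated libraries did not overlap, while GLY_PUE replicate 2 lay below PUE replicate 3. KCNK15 rose, with log2 fold changes of 1.19 (SE 0.34, adjusted p = 0.00816) for GLY against untreated and 0.89 (SE 0.34, adjusted p = 0.0323) for GLY_PUE against PUE. KCNK15 lost its call in GLY_PUE against PUE without PUE replicate 1 or 2, GLY_PUE replicate 1 or 3 or the libraries numbered 3 (between 0.51 and 0.96, adjusted p from 0.0502 to 0.171). Part of its exons (506 of 2599 bases) overlaps RIMS4 on the other strand, and whether counting used strand is not stated. KCNK7 had at most 7 reads in any library.

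Voltage-gated potassium channels repolarise excitable cells. KCNH2, the cardiac rapid delayed rectifier gene, stood at 16.8, 18.2 and 17 CPM in untreated cells, 17.3, 17 and 15.8 with PUE, 9.63, 8.56 and 7.74 with GLY and 8.38, 8.05 and 8.38 with both. Levels with GLY were all under 10 CPM and those without were all above 15. The changes were −1.0 (SE 0.20, adjusted p = 0.00104) for GLY against untreated and −1.01 (SE 0.20, adjusted p = 0.00105) for GLY_PUE against PUE. Under TMM they were 0.17 and −0.00043 and not called: KCNH2 fell relative to library totals and not relative to the middle of the list. Its relative KCNH1 went the other way. It had 0.642, 0.398 and 0.0986 CPM in untreated cells, 0.298, 0.443 and 0.152 with PUE, 0.425, 1.92 and 1.59 with GLY and 1.26, 1.93 and 1.7 with both, with GLY replicate 1 inside the untreated range (1.77, SE 0.63, adjusted p = 0.0206, for GLY against untreated, and 2.43, SE 0.65, adjusted p = 0.00556, for GLY_PUE against PUE). KCNH1 lost its call in GLY against untreated without untreated replicate 3, GLY replicate 2 or 3 or the libraries numbered 3 (between 1.16 and 1.61, adjusted p from 0.0541 to 0.167). In GLY against untreated KCNH1 was at 2.38 without untreated replicate 1, still called. Of KCNH1's exon bases 3618 of 9812 overlap a gene on the other strand. Further overlaps, of 1582 and 387 bases, are with protein-coding genes on the same strand. KCNH8 fell by 1.35 and 1.37 on the log2 scale and was not called under TMM (−0.26 and −0.34). KCNH8 lost its call in GLY against untreated without untreated replicate 3 or GLY replicate 1 (between −1.16 and −0.97, adjusted p from 0.0555 to 0.0641). KCNH8 lost its call in GLY_PUE against PUE without PUE replicate 3, GLY_PUE replicate 1 or the libraries numbered 3 (between −1.24 and −1.07, adjusted p from 0.0694 to 0.0792).

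KCNQ1, which carries epithelial and cardiac potassium currents, was at 1.28, 1.39 and 1.33 CPM in untreated cells, 1.74, 0.59 and 1.83 with PUE, 1.84, 0.609 and 0.751 with GLY and 0.421, 0.80 and 0.805 with both. PUE replicate 2 was the lowest of the libraries without GLY and GLY replicate 1 the highest of all 12. No change was called for KCNQ1 (−0.32, SE 0.49, adjusted p = 0.533, for GLY against untreated, and −1.03, SE 0.51, adjusted p = 0.0773, for GLY_PUE against PUE), and leaving out PUE replicate 2 or GLY replicate 1 gave a call in GLY_PUE against PUE (−1.39 and −1.03, adjusted p = 0.0245 and 0.0425). The partner subunit gene KCNE3, whose protein holds KCNQ1 channels open in colonic crypts, had 8.44, 8.25 and 13.3 CPM in untreated cells, 8.01, 8.05 and 10.9 with PUE, 1.19, 1.34 and 1.88 with GLY and 0.993, 0.96 and 1.42 with both. Every library with GLY lay under 2 CPM and every other above 8. KCNE3 fell, with log2 fold changes of −2.76 (SE 0.32, adjusted p = 5.15e-05) for GLY against untreated and −3.01 (SE 0.32, adjusted p = 3.37e-05) for GLY_PUE against PUE, and was called lower under TMM too (−1.61 and −1.99). An antisense gene covers 609 of its 3677 exon bases.

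Of the delayed rectifier and A-type genes, KCNA6 had 4.3, 4.78 and 9.81 CPM in untreated cells, 4.67, 4.72 and 7.83 with PUE, 0.85, 0.889 and 1.92 with GLY and 1.08, 1.37 and 1.56 with both. The groups with and without GLY did not overlap (−2.36, SE 0.43, adjusted p = 0.000644, for GLY against untreated, and −2.1, SE 0.43, adjusted p = 0.00128, for GLY_PUE against PUE), but all 4237 exon bases of KCNA6 lie within exons of GALNT8 on the same strand, so reads of the genes cannot be told apart with certainty. KCND1 was at 0.939, 2.29 and 1.97 CPM in untreated cells, 2.09, 1.82 and 2.85 with PUE, 0.52, 0.609 and 0.563 with GLY and 0.515, 0.471 and 0.947 with both. All libraries with GLY lay at or under 0.947 CPM, and untreated replicate 1 at 0.939 CPM was the sole library without GLY in that range. It fell, with log2 fold changes of −1.61 (SE 0.41, adjusted p = 0.0042) for GLY against untreated and −1.79 (SE 0.40, adjusted p = 0.00225) for GLY_PUE against PUE, and was not called under TMM (−0.46 and −0.78). KCNC1, at 0.445 to 1.18 CPM without GLY and 0.0468 to 0.188 CPM with it, fell by 3.18 and 2.64 on the log2 scale. In GLY against untreated KCNC1 was at −3.85 without GLY replicate 1 and −2.46 without the libraries numbered 3, still called. KCNA2 fell with GLY by 2.45 and was not called in GLY_PUE against PUE (−1.49, SE 0.67, adjusted p = 0.0566). Under TMM and RLE (DESeq2's size factors) the call of KCNA2 for GLY ended (−1.31, adjusted p = 0.137, and −1.36, adjusted p = 0.124). In GLY_PUE against PUE it was called with the replicate block (−1.47, adjusted p = 0.0163), and without GLY replicate 1 or 3 or untreated replicate 1 or 3 (−1.49, adjusted p from 0.0369 to 0.0463). KCNA2 lost its call in GLY against untreated without untreated replicate 3 (−1.64, adjusted p = 0.0509). Limma on log2(FPKM + 1) and log2(FPKM + 0.1) did not call it there (−0.09 and −0.58, adjusted p = 0.134 and 0.0762). In GLY against untreated KCNA2 was at −3.51 without GLY replicate 3, still called. The beta subunit gene KCNAB3 was not called in either (−0.97 and −0.59), although it was without GLY replicate 1 (−1.6, adjusted p = 0.00683) or GLY_PUE replicate 3 (−0.96, adjusted p = 0.0393) in the first and without GLY_PUE replicate 3 (−1.12, adjusted p = 0.0442) in the second. In limma-voom KCNAB3 was called lower for GLY against untreated (−1.1, adjusted p = 0.0311).

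KCNF1, KCNS3 and KCNG2 encode silent subunits, which form no channel alone but alter the delayed rectifiers they join. KCNF1 (gene ID 3754) was at 0.296, 0.249 and 0.0493 CPM in untreated cells, 0.199, 0.148 and 0.102 with PUE, 4.82, 2.86 and 4.08 with GLY and 2.39, 2.21 and 3.65 with both. It was barely detected without GLY, with 1 to 6 reads per library, and was well above that in all 6 libraries with GLY. Its change, 4.26 (SE 0.49, adjusted p = 4.96e-05) for GLY against untreated and 4.15 (SE 0.50, adjusted p = 7.93e-05) for GLY_PUE against PUE, was the largest increase among the 49 genes in each comparison. KCNF1 was called under TMM as well, a scaling that favours calls of higher genes here. KCNS3 was at 3.9, 4.49 and 6.99 CPM in untreated cells, 3.84, 4.1 and 6.79 with PUE, 1.85, 2.46 and 2.77 with GLY and 2.79, 2.68 and 2.68 with both. It fell, with log2 fold changes of −1.11 (SE 0.32, adjusted p = 0.00761) for GLY against untreated and −0.85 (SE 0.32, adjusted p = 0.0277) for GLY_PUE against PUE, with the sign turned under TMM (0.04 and 0.20, not called). KCNS3 lost its call in GLY_PUE against PUE without PUE replicate 3, GLY_PUE replicate 1, 2 or 3 or the libraries numbered 3 (between −0.86 and −0.54, adjusted p from 0.0586 to 0.143). KCNG2 had at most 6.52 estimated reads. Over the 24 tested potassium channel genes 6 rose and 15 fell with GLY (6 and 6 under TMM), and 6 rose and 14 fell in GLY_PUE against PUE (6 and 6 under TMM). Over all genes tested 19.7% rose and 64.6% fell with GLY (23.7% and 10.1% under TMM). The shares for GLY_PUE against PUE were 20.6% and 57.3% (24.2% and 11.7% under TMM).

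Voltage-gated sodium channels carry the upstroke of the action potential. SCN8A, a neuronal form, was at 16, 13.6 and 10.7 CPM in untreated cells, 15, 14.7 and 9.76 with PUE, 2.79, 7.02 and 4.92 with GLY and 5.9, 7.58 and 5.21 with both. The groups with and without GLY did not overlap (−1.45, SE 0.34, adjusted p = 0.00256, for GLY against untreated, and −1.08, SE 0.33, adjusted p = 0.012, for GLY_PUE against PUE), but under TMM it was not called (−0.37 and −0.08), and a long non-coding RNA gene shares 896 of its 14935 exon bases on the other strand. SCN4A, the skeletal muscle form, rose from 0.889, 0.498 and 0.887 CPM in untreated to 1.98, 2.29 and 4.88 CPM in GLY libraries (2.0, SE 0.50) and by 1.47 in GLY_PUE against PUE, number 3 being the highest of both groups with GLY. SCN4A lost its call in GLY_PUE against PUE without PUE replicate 3, GLY_PUE replicate 3 or the libraries numbered 3 (between 0.67 and 1.3, adjusted p from 0.0575 to 0.102). The beta subunit gene SCN4B, under 1.1 CPM throughout, fell by 2.0 and 2.36. Under TMM and RLE SCN4B was not called for GLY (−0.85, adjusted p = 0.23, and −0.91, adjusted p = 0.178) and was called lower in GLY_PUE against PUE (−1.37, adjusted p = 0.0413, and −1.39, adjusted p = 0.0348).

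TRP channels are cation channels gated by many stimuli. TRPV6 (gene ID 55503), the calcium-selective channel of intestinal calcium uptake, was at 4.74, 4.43 and 3.3 CPM in untreated cells, 3.48, 4.33 and 3.15 with PUE, 35.1, 18.7 and 29.6 with GLY and 18.3, 19 and 36.6 with both. It was under 5 CPM in each library without GLY and above 18 in each with it. TRPV6 rose, with log2 fold changes of 2.74 (SE 0.35, adjusted p = 8.52e-05) for GLY against untreated and 2.75 (SE 0.35, adjusted p = 9.87e-05) for GLY_PUE against PUE. TRPM4 (gene ID 54795), a calcium-activated channel that carries sodium and not calcium, was at 19, 19.6 and 8.03 CPM in untreated cells, 17.5, 17.8 and 9.76 with PUE, 60.6, 33 and 20.8 with GLY and 34.7, 33 and 33.6 with both. Its groups did not overlap, with GLY replicate 3 at 20.8 CPM close to untreated replicate 2 at 19.6. TRPM4 rose, with log2 fold changes of 1.29 (SE 0.42, adjusted p = 0.0134) for GLY against untreated and 1.17 (SE 0.42, adjusted p = 0.0228) for GLY_PUE against PUE. TRPM4 lost its call in GLY against untreated without untreated replicate 3 or GLY replicate 1 (between 0.79 and 0.98, adjusted p from 0.0512 to 0.068). TRPM4 lost its call in GLY_PUE against PUE without PUE replicate 3 or GLY_PUE replicate 1 (between 0.93 and 1.15, adjusted p from 0.0527 to 0.0876). TRPV3, a warmth-gated channel of keratinocytes, was at 0.988, 1.19 and 0.887 CPM in untreated cells, 1.44, 1.38 and 1.17 with PUE, 1.65, 4.17 and 5.16 with GLY and 3.56, 4.14 and 4.02 with both. It rose, with log2 fold changes of 1.83 (SE 0.38, adjusted p = 0.00135) for GLY against untreated and 1.55 (SE 0.37, adjusted p = 0.00326) for GLY_PUE against PUE, and GLY replicate 1 was the lowest of the libraries with GLY.

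The capsaicin receptor gene TRPV1 moved down instead. TRPV1 was at 3.25, 3.12 and 6.66 CPM in untreated cells, 3.91, 3.86 and 5.85 with PUE, 2.02, 1.05 and 2.03 with GLY and 2.09, 2.0 and 3.61 with both. It fell with GLY (−1.36, SE 0.40, adjusted p = 0.00899) and was not called in GLY_PUE against PUE (−0.83, SE 0.39, adjusted p = 0.0682). It was called there with the replicate block (−0.86, adjusted p = 0.00822), and without GLY_PUE replicate 3 (−1.15, adjusted p = 0.0344), untreated replicate 3 (−0.83, adjusted p = 0.0448) or the libraries numbered 3 (−0.93, adjusted p = 0.0323). TRPV1 lost its call in GLY against untreated without untreated replicate 3 (−0.92, adjusted p = 0.0523). Under TMM TRPV1 was not called in either (−0.15 and 0.19). Of its 5519 exon bases 1519 overlap another gene on the same strand. TRPV4, a channel opened by swelling, fell by 2.27 and 2.44 on the log2 scale, from a mean of 4.86 ± 0.596 CPM in untreated to 1.00 ± 0.361 CPM in GLY cells, and was called lower under TMM (−1.08 and −1.42). TRPM3 had too few reads (0.148 to 0.965 CPM without and 0 to 0.189 CPM with GLY). Of the 5 TRP genes tested 3 rose and 2 fell with GLY (3 and 1 under TMM), the median being 1.3, and 3 rose and 1 fell in GLY_PUE against PUE under either scaling. Over all genes tested 19.7% rose and 64.6% fell with GLY (23.7% and 10.1% under TMM). The shares for GLY_PUE against PUE were 20.6% and 57.3% (24.2% and 11.7% under TMM).

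Anoctamins are calcium-activated chloride channels or lipid scramblases. ANO4 was at 11, 8.91 and 39.1 CPM in untreated cells, 9.25, 9.98 and 35.5 with PUE, 1.32, 1.69 and 4.13 with GLY and 1.87, 2.12 and 4.12 with both. The number 3 libraries were the highest of each group, yet the highest library with GLY lay under the lowest without it. ANO4 fell, with log2 fold changes of −3.04 (SE 0.72, adjusted p = 0.00282) for GLY against untreated and −2.75 (SE 0.71, adjusted p = 0.00485) for GLY_PUE against PUE. In GLY against untreated ANO4 was at −3.7 without GLY replicate 3 and −2.06 without untreated replicate 3, still called. In GLY_PUE against PUE ANO4 was at −1.83 without PUE replicate 3, still called. CLIC5, a chloride intracellular channel gene, was at 6.22, 5.92 and 19.5 CPM in untreated cells, 6.37, 5.31 and 18.1 with PUE, 0.897, 0.889 and 1.83 with GLY and 0.656, 1.6 and 1.04 with both, with the same height of number 3 in the untreated and PUE groups. CLIC5 fell, with log2 fold changes of −3.12 (SE 0.63, adjusted p = 0.00113) for GLY against untreated and −3.17 (SE 0.63, adjusted p = 0.00114) for GLY_PUE against PUE. In GLY against untreated CLIC5 was at −2.33 without untreated replicate 3, still called. In GLY_PUE against PUE CLIC5 was at −2.4 without PUE replicate 3 and −2.37 without the libraries numbered 3, still called. ANO8 was at 4.55, 5.12 and 6.06 CPM in untreated cells, 3.89, 4.37 and 8.65 with PUE, 1.94, 1.03 and 1.93 with GLY and 1.59, 2.02 and 3.46 with both. It fell, with log2 fold changes of −1.68 (SE 0.40, adjusted p = 0.00309) for GLY against untreated and −1.25 (SE 0.40, adjusted p = 0.0131) for GLY_PUE against PUE. ANO8 lost its call in GLY_PUE against PUE without PUE replicate 3 or GLY_PUE replicate 1 (between −1.04 and −0.81, adjusted p from 0.0561 to 0.0787). All 3 genes of the family fell in each comparison, and ANO4 and CLIC5 did so under TMM as well, while ANO8 was not called there (−0.51 and −0.22). Of all genes tested 64.6% fell with GLY and 57.3% in GLY_PUE against PUE (10.1% and 11.7% under TMM).

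Voltage-gated calcium channels couple voltage to calcium entry, and their gamma relatives CACNG4 and CACNG8 also regulate AMPA receptors. CACNG8 was at 4.09, 4.51 and 4.66 CPM in untreated cells, 4.24, 4.31 and 6.62 with PUE, 6.14, 6.73 and 7.43 with GLY and 6.35, 6.86 and 14.4 with both. GLY and untreated libraries did not overlap, yet the gene was not called for GLY (0.61, SE 0.33, adjusted p = 0.0921). For that comparison it was called with the replicate block (0.61, adjusted p = 0.0304), without GLY_PUE replicate 3 (0.61, adjusted p = 0.0376) and without the libraries numbered 3 (0.58, adjusted p = 0.0234). Under TMM and RLE it was called with larger values (1.76, adjusted p = 0.000278, and 1.70, adjusted p = 0.000324). CACNG8 rose in GLY_PUE against PUE (0.86, SE 0.33, adjusted p = 0.0291), where GLY_PUE replicate 3 stood far above the other libraries. CACNG8 lost its call in GLY_PUE against PUE without PUE replicate 1 or 2 or GLY_PUE replicate 3 (between 0.39 and 0.76, adjusted p from 0.0897 to 0.205). Limma on log2(FPKM + 0.1) did not call it there (0.70, adjusted p = 0.0508). CACNG4 was at 0.939, 0.796 and 0.69 CPM in untreated cells, 0.547, 0.59 and 1.02 with PUE, 0.331, 0.374 and 0.422 with GLY and 0.187, 0.33 and 0.142 with both, a fall of 1.09 and 1.68 on the log2 scale that was not called under TMM (0.02 and −0.65). CACNG4 lost its call in GLY against untreated without untreated replicate 1 or 2 or GLY replicate 1 or 2 (between −1.1 and −0.97, adjusted p from 0.0601 to 0.0871). DESeq2 did not call it there (−1.1, adjusted p = 0.0575). CACNA2D3, an auxiliary subunit gene, was at 0.494, 0.547 and 0.83 CPM in untreated cells, 0.995, 0.541 and 0.965 with PUE, 0.142, 0.14 and 0.315 with GLY and 0.187, 0.141 and 0.284 with both, and fell, with log2 fold changes of −1.59 (SE 0.50, adjusted p = 0.0114) for GLY against untreated and −2.0 (SE 0.49, adjusted p = 0.00369) for GLY_PUE against PUE. The pore gene CACNA1D and the auxiliary gene CACNA2D2 fell by 1.51 and 1.33 with GLY and by 1.69 and 1.70 in GLY_PUE against PUE. None of these 3 genes was called under TMM (−0.48 and −1.0 for CACNA2D3, −0.41 and −0.66 for CACNA1D and −0.12 and −0.68 for CACNA2D2).

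CACNA1S and CACNA1E were not called in any comparison. CACNA1S reads mostly came from the number 3 libraries: 3.75, 3.4, 2.06 and 1.8 CPM in untreated, PUE, GLY and GLY_PUE cells, against 0.234 to 0.840 CPM in all others. With the replicate block CACNA1E was called for GLY (−1.24, adjusted p = 0.0132) and CACNA1S in GLY_PUE against PUE (−0.94, adjusted p = 0.0223). In the family none rose and 4 of 7 fell with GLY, while under TMM 1 rose and none fell. In GLY_PUE against PUE 1 rose and 4 fell, while under TMM 1 rose and none fell. Over all genes tested 19.7% rose and 64.6% fell with GLY (23.7% and 10.1% under TMM). The shares for GLY_PUE against PUE were 20.6% and 57.3% (24.2% and 11.7% under TMM).

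Among the ligand-gated genes, GABRA3, a GABA-A receptor alpha subunit, was at 15, 14.9 and 26.6 CPM in untreated cells, 13.5, 15.2 and 22.6 with PUE, 2.46, 6.46 and 8.21 with GLY and 5.81, 6.03 and 7.24 with both. GLY replicate 1 was the lowest library, and the groups with and without GLY did not overlap (−1.72, SE 0.40, adjusted p = 0.0027, for GLY against untreated, and −1.42, SE 0.40, adjusted p = 0.00746, for GLY_PUE against PUE), though under TMM GABRA3 was not called (−0.61 and −0.39). The beta subunit gene GABRB1 was at 0.712, 0.347 and 0.463 CPM in untreated cells, 0.235, 0.339 and 0.285 with PUE, 0.348, 0.832 and 0.376 with GLY and 0.473, 0.893 and 0.87 with both. It was not called with GLY (0.06, SE 0.48, adjusted p = 0.902) and rose in GLY_PUE against PUE (1.28, SE 0.49, adjusted p = 0.0299). GABRB1 lost its call in GLY_PUE against PUE without PUE replicate 1, 2 or 3, GLY_PUE replicate 2 or 3 or the libraries numbered 3 (between 1.13 and 1.4, adjusted p from 0.0558 to 0.136). Nor was GABRB1 called there in DESeq2 (1.3, adjusted p = 0.0505). In limma on log2(FPKM + 1) and log2(FPKM + 0.1) it was at 0.05 and 0.29 (adjusted p = 0.362 and 0.265). GABRQ was not called (−1.63 and −1.02, and for GLY −1.71, adjusted p = 0.0355 with the replicate block, and −2.58, adjusted p = 0.0251 without GLY replicate 3), and GABRD had too few reads. For GLY limma-voom called GABRQ lower (−2.26, adjusted p = 0.0233). So did limma on log2(FPKM + 1) and log2(FPKM + 0.1) (−0.24 and −1.12, adjusted p = 0.0303 and 0.0216). GRIK4, a kainate receptor subunit, was at 0.518, 0.509 and 1.79 CPM in untreated cells, 1.25, 0.798 and 2.09 with PUE, 0.522, 0.567 and 0.876 with GLY and 0.703, 0.583 and 1.03 with both, and was not called in any comparison (with the replicate block −0.79, adjusted p = 0.0408 in GLY_PUE against PUE).

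P2RX6, a subunit of ATP-gated channels, was at 1.09, 0.846 and 1.68 CPM in untreated cells, 0.945, 1.48 and 1.93 with PUE, 0.709, 0.655 and 0.328 with GLY and 0.187, 0.424 and 0.426 with both. It fell, with log2 fold changes of −1.08 (SE 0.45, adjusted p = 0.0391) for GLY against untreated and −2.05 (SE 0.47, adjusted p = 0.00252) for GLY_PUE against PUE, with values of 0.11 and −1.03 under TMM, not called. P2RX6 lost its call in GLY against untreated without untreated replicate 1 or 3, PUE replicate 2, GLY replicate 2 or 3 or the libraries numbered 3 (between −1.21 and −0.50, adjusted p from 0.0528 to 0.285). ASIC3, opened by acid, fell by 1.17 and 1.41 (adjusted p = 0.0324 and 0.0161), and was not called under TMM (0.01 and −0.38). ASIC3 lost its call in GLY against untreated without untreated replicate 2 or 3, GLY replicate 2 or 3 or the libraries numbered 3 (between −1.16 and −0.92, adjusted p from 0.0652 to 0.104). ASIC3 lost its call in GLY_PUE against PUE without PUE replicate 3 or GLY_PUE replicate 1 or 2 (between −1.32 and −1.05, adjusted p from 0.0541 to 0.0773).

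No channel gene was called for PUE alone. PUE against untreated called 0 of the 49 genes (0% of all genes tested with edgeR). At an unadjusted p under 0.05 there were 0 channel genes against 0.35% of all genes, and DESeq2 and limma-voom called none either. The groups failed to overlap for 1 gene, GABRB1, which was lower with PUE (3.3% of all genes). Its log2 fold change of −0.71 (95% interval −1.8 to 0.38) was the largest in size, and the smallest unadjusted p among the 49 genes was 0.181. For the 5 genes with the smallest p the values were 0.41 for CACNA2D3, −0.71 for GABRB1, 0.57 for GRIK4, 0.38 for KCND1 and 0.38 for TRPV3. For 24 of 49 genes the 95% interval lay within 1 log2 unit of no change. KCNJ5 was at −0.01 (−0.60 to 0.59) and KCNH2 at −0.05 (−0.48 to 0.37). The intervals of the others reached further, as for CACNA1S (−2.46 to 2.08), whose number 3 libraries stood far above the others in both groups. With the replicate block its interval was −0.90 to 0.49, and 30 of 49 intervals lay within 1 log2 unit of no change. The block too called 0 channel genes (0% of all genes), with 0 at an unadjusted p under 0.05 against 0.554% of all genes.

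**Figure D4:**
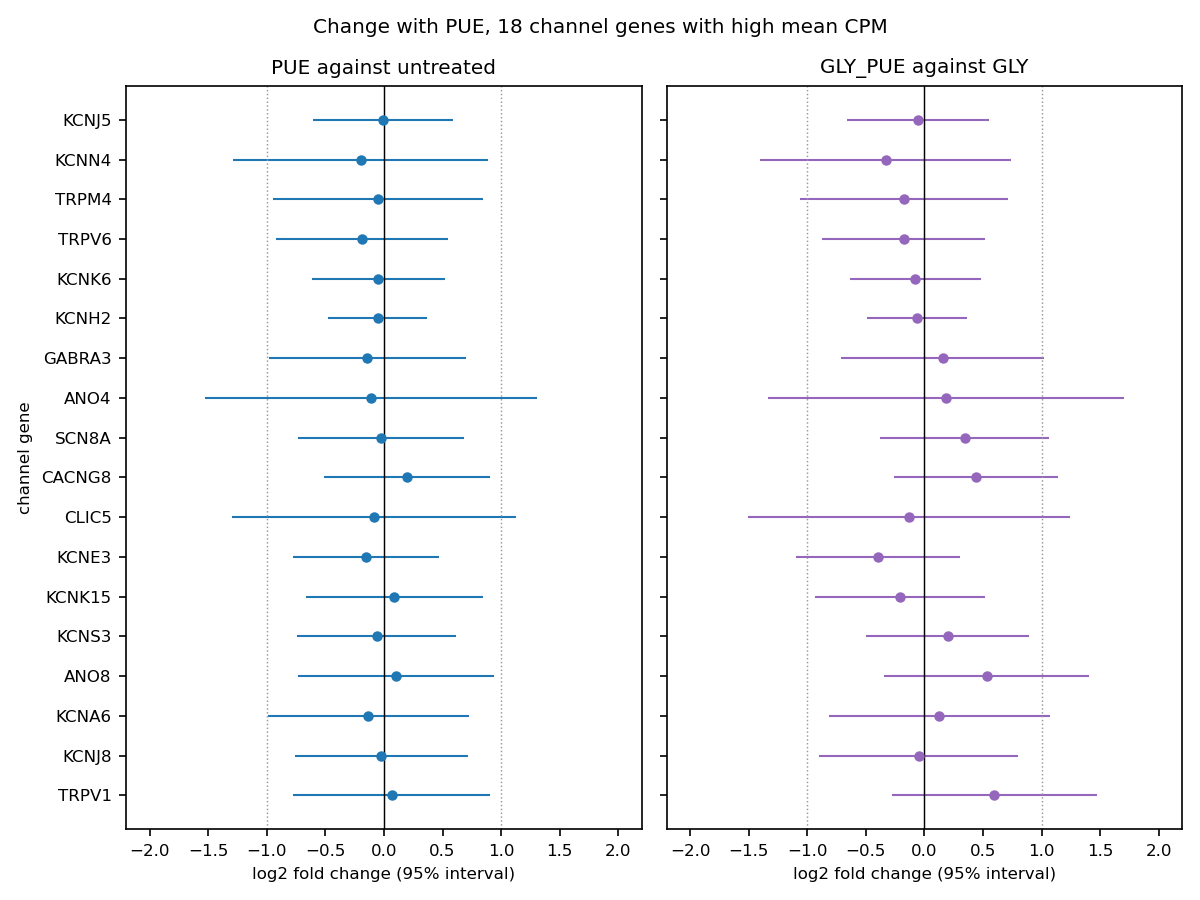
Log2 fold change with its 95% interval for PUE against untreated and for GLY_PUE against GLY in 18 channel genes with a high mean level. The intervals of all 18 genes cross 0 in each comparison, and are narrowest for KCNH2.

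Adding PUE to GLY changed no channel gene past the threshold. GLY_PUE against GLY called 0 of 49 genes (0% of all genes). At an unadjusted p under 0.05 there were 0 channel genes against 1.66% of all genes, and DESeq2 and limma-voom called none. The groups did not overlap for 2 channel genes, of which CACNG4 was lower (4.81% of all genes were apart). The smallest p-values belonged to CACNG4 (−0.76), CACNG8 (0.44), KCNJ10 (0.92, the largest change), P2RX6 (−0.70) and TRPV1 (0.60), the lowest unadjusted p being 0.125. The median was −0.05 for the channel genes and 0.11 for all genes, and 15 of 49 intervals lay within 1 log2 unit of no change. With the replicate block 29 did, and 0 channel genes were called (0% of all genes). TRPV1 alone then had an unadjusted p under 0.05 (0.58, 95% interval 0.01 to 1.15, adjusted p = 0.771 in edgeR), against 3.35% of all genes.

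Whether GLY acted differently with PUE than without it is tested by the interaction. It called 0 of 49 channel genes (0% of all genes), and at an unadjusted p under 0.05 there were 0 channel genes against 0.962% of all genes. DESeq2 and limma-voom called none, nor did edgeR with the replicate block, where 0 channel genes had an unadjusted p under 0.05 against 1.69% of all genes. Among the 5 smallest p-values were those of GABRB1 (1.22, 95% interval −0.26 to 2.7), P2RX6 (−0.97), KCNJ10 (0.98) and KCNQ1 (−0.71), with 0.0971 as the lowest unadjusted p. For the genes that led the GLY response the interval of the interaction was −0.90 to 0.80 for KCNJ5, −0.98 to 1.0 for TRPV6 and −1.66 to 1.4 for KCNN4.

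The libraries numbered 3 carried more reads of many channel genes. Number 3 was the highest untreated library for 31 of the 49 genes, the highest PUE library for 34, the highest GLY library for 22 and the highest library with both agents for 31. In a fit with a term for number 3, chosen after seeing the data, 16 of 49 genes were higher (18.1% of all genes) and 2 lower (5.31%). The higher genes were led by CACNA1S (2.66), CACNA1E (2.11), ANO4 (1.63) and CLIC5 (1.22), and the lower genes were KCNN4 (−1.15, adjusted p = 0.00601) and TRPM4 (−0.79, adjusted p = 0.0296). Without these 4 libraries 48 channel genes were tested, of which 10 rose (16.8% of all 3391 genes tested) and 26 fell (55.7%) with GLY, and 8 rose (17.3%) and 27 fell (50%) in GLY_PUE against PUE. What sets number 3 apart is not stated in the labels and was not tested.

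The authors' deposited table marks, at its own cut-offs, 10 of the 54 channel genes higher and 33 lower for GLY against untreated, where it marks 18.2% and 59.6% of all 3699 listed genes. For GLY_PUE against PUE the authors' deposited table marks 9 higher (18.5% of all) and 32 lower (50.8%). For PUE against untreated it marks no channel gene and 0.162% and 0.351% of all listed genes higher and lower, and for GLY_PUE against GLY none and 1.16% and 0.73%. In the authors' deposited table the marked genes include CACNA1E and GABRQ in the first comparison and KCNA2 and KCNQ1 in the second, which were not called by edgeR here.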

How the data were processed

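RNA was read on the BGISEQ-500 from 0.5 µg per library, per the labels' protocols. The submitters' processing notes list TopHat, and DESeq 1.32.0, with no role for either. The tool that counted reads, the build and the annotation: not given in the sources used here. The authors deposited 1 table of 3699 genes, holding estimated counts per gene and library without normalization (58.2% of them whole numbers), per the file headers. A second set of deposited values, scaled for gene length and library by the authors, is called FPKM here, although the headers name no unit. TPM would keep the ratios between genes within a library. Counts divided by TPM would not give total reads, so the recovered totals and the calls scaled by them rest on this reading of the unit. The authors' log2 ratios and their p-values and q-values are in further columns, per the file headers. As tested on the values, all 3699 genes have a log2 ratio of at least 1 in size with a q-value of at most 0.001 in some comparison. A total of 7 symbols had turned into dates.

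Library totals were recovered by dividing counts by FPKM and taking the median of 625 genes (minimum 100 counts and 5 FPKM), put on an absolute scale with 39 single-transcript genes of GENCODE 29 (untreated replicate 1: 20.2 M reads, 95% interval 20.0 to 20.7). The listed genes held 13.8% to 15.4% of reads. Rounded counts were tested in edgeR 4.0.16 (R 4.3.3; filterByExpr, robust quasi-likelihood fit of 4 groups, recovered totals as library sizes, Benjamini-Hochberg adjustment), and the script was tested on simulated data. SE is the log2 fold change divided by the root of F. The alternatives tried were scaling by TMM or by RLE, a fit in DESeq2 1.42.0, limma-voom, limma (3.58.1) on log2(FPKM + 1) and log2(FPKM + 0.1), other filters, a threshold of 1 on the log2 fold change, only the libraries compared, a replicate block and libraries left out. Deviations of same-numbered libraries correlated across genes at 0.224 to 0.423 for GLY_PUE and PUE and 0.234 to 0.406 for GLY_PUE and untreated. The range was 0.547 to 0.816 for PUE and untreated and 0.105 to 0.416 for GLY_PUE and GLY. All pass the minimum of 0.1 taken for pairing. For GLY and untreated the lowest was 0.066, so these are not taken as paired. Some differently numbered libraries correlated as much. PUE replicate 2 gave 0.288 with GLY_PUE replicate 1 and 0.224 with GLY_PUE replicate 2. Others did not: GLY replicate 1 gave −0.0516 with GLY_PUE replicate 2 and 0.105 with GLY_PUE replicate 1. Number 3 correlated negatively with numbers 1 and 2 of other groups, a sign that centring on the group mean favours. The values therefore cannot separate pairing by number from the difference of number 3.

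Values in every library are given for the 20 channel genes of highest mean CPM and the 5 with the smallest p in each comparison, apart from a few genes that are not reported here and stay in the counts and tests. Up to 4 genes of highest CPM are named from each other list. The members and lists were chosen with earlier results of these data known. BER and WOG, named in the protocol, were not analysed here.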

Additional observations from a re-analysis of the deposited data

How the results depend on the processing

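Channel genes called lower numbered 10 under TMM and 10 under RLE for GLY against untreated (30 with library totals), 11 and 11 for GLY_PUE against PUE (28), and 9 and 9 for GLY_PUE against untreated (29). Among genes called lower with library totals, signs turned, without a call, for KCNJ11 (0.480 TMM, 0.414 RLE), KCNMB4 (0.328, 0.267), KCNH2 (0.167, 0.10), P2RX6 (0.113, 0.043), KCNS3 (0.037 TMM), CACNG4 (0.017 TMM) and ASIC3 (0.013 TMM) in GLY against untreated. KCNS3 also turned in GLY_PUE against PUE (0.195, 0.169) and GLY_PUE against untreated (0.121, 0.089), and KCNMB4 in the last (0.00756 TMM). Genes that gained a call under both scalings were CACNG8 for GLY, given above, and GABRB1 in GLY_PUE against untreated (1.55 TMM, adjusted p = 0.0139, and 1.52 RLE, adjusted p = 0.015). Tested against a log2 fold change of 1, 4 genes were higher and 13 lower in GLY against untreated (7.03% and 20.9% of all genes tested), 3 and 16 in GLY_PUE against PUE (6.56% and 18%), and 3 and 12 in GLY_PUE against untreated (6.71% and 18%). With a minimum of 1 for the mean log2 CPM, which leaves fewer genes tested, 18 of 28 were lower in each of the 3 (69.4%, 61.4% and 61.2% of all 2452 genes tested). Leaving out each library in turn gave 8 to 11 higher and 23 to 33 lower for GLY against untreated, 7 to 12 and 23 to 31 for GLY_PUE against PUE, and 8 to 11 and 22 to 31 for GLY_PUE against untreated. With the replicate block, 11 genes were higher and 33 lower in GLY against untreated (20.8% and 69.2% of all genes tested), 12 and 32 in GLY_PUE against PUE (22.4% and 63.6%), and 11 and 32 in GLY_PUE against untreated (22.2% and 63.1%). The block ended no call, and changed no other reported call than the gains given beside their genes and those of CACNA1E (−1.44, adjusted p = 0.00765), CACNA1S (−1.15, adjusted p = 0.00862) and TRPV1 (−0.74, adjusted p = 0.0169) in GLY_PUE against untreated. DESeq2, limma-voom and no filter gave 10 to 12 genes higher and 27 to 34 lower in these comparisons. Shares of all genes for these settings, for RLE and for the single libraries left out are not given. In the main fit 19.7%, 20.6% and 20.2% of all genes were higher and 64.6%, 57.3% and 57.1% lower. The counts therefore show how far the calls held. Under TMM 20.4% of channel genes fell with GLY against 10.1% of all genes. The lower shares were 22.4% against 11.7% in GLY_PUE against PUE, and 18.4% against 11.5% in GLY_PUE against untreated. Shares called higher under TMM were closer, at 22.4% against 23.7%, 24.5% against 24.2% and 24.5% against 23.8%. Whether channel genes differ from the rest of the list was not tested. Of 79 calls of the genes chosen by level or smallest p, 77 held with DESeq2, 78 with limma-voom, 75 with each FPKM setting and 72 without the libraries numbered 3. Of the same 79 calls, 48 held under TMM (6 turned sign), 48 under RLE (4 turned sign) and 37 when tested against a log2 fold change of 1. Depth limits the genes with few reads, such as KCNF1 without GLY (1 to 6 reads per library).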

Other observations

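Other ion transport genes are given as values, from lists of textbook members outside the channel families above. The counts below stand beside 19.7% of all genes tested called higher and 64.6% called lower with GLY. Of 55 further cation, ligand-gated and connexin genes 11 were in the table and 10 tested, of which 3 rose and 5 fell with GLY. The connexin gene GJB2, whose protein forms gap junctions, stood at 22.6, 21.5 and 14.4 CPM in untreated cells, 21.9, 24.2 and 16.5 with PUE, 31.7, 66.5 and 86.3 with GLY and 60, 59.4 and 75.3 with both (1.66 for GLY against untreated, 1.63 for GLY_PUE against PUE). The TMC family gene TMC7 rose as well (1.49 and 1.67). GJB1, the liver and nerve sheath connexin, went the other way, from 55.9, 59.4 and 94.5 CPM in untreated to 10.9, 7.4 and 4.32 CPM in GLY libraries (−3.21 and −3.55). These 3 genes' calls were also made under TMM, which favours calls of higher genes, here GJB2 and TMC7.

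Of 22 epithelial sodium, CFTR, bestrophin, volume-regulated and related chloride channel genes 3 were in the table. BEST1, a calcium-activated chloride channel, rose by 2.44 with GLY and 2.24 in GLY_PUE against PUE (1.47 without the libraries numbered 3). TTYH3 fell by 1.84 and 1.88, and the epithelial sodium channel subunit gene SCNN1A by 1.05 and 1.22. Under TMM SCNN1A was not called (0.16 and −0.21), nor was TTYH3 for GLY (−0.65). Of 26 genes of calcium store release and entry 5 were in the table, and 3 fell with GLY: MCOLN3 (−1.11, a call lost without untreated replicate 3 at −0.89, adjusted p = 0.0605), PKD2 (−1.36) and ORAI3 (−0.97). None of these was called under TMM.

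Of 25 ion pump genes 6 were in the table, of which 1 rose and 4 fell with GLY. The sodium pump subunit gene ATP1B1 went from 18.6, 16.5 and 14.1 CPM to 5.67, 9.56 and 6.72 CPM (−1.16), and the calcium pump gene ATP2A3 changed by −0.85, neither being called under TMM. Of 45 channel regulator genes 15 were in the table, of which 4 rose and 10 fell with GLY. STX1A rose by 1.96 and the calcium channel inhibitor gene GEM by 3.25. Both were called under TMM too, a scaling that favours calls of higher genes here. The calmodulin gene CALM3 (−1.15) and the kinase gene CAMK2G (−1.43) fell and were not called under TMM (0.07 and −0.26). LRRC26, an auxiliary subunit of the KCNMA1 channel that was picked after its values were seen, fell by 3.57 with GLY and 3.75 in GLY_PUE against PUE, while KCNMA1 rose. In PUE against untreated, GLY_PUE against GLY and the interaction none of these lists held a called gene.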
